A study of Mus musculus with 45 samples.

Results

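A set of 100 protein-coding genes was followed whose RNA was lower after GABPA degradation at each of 3 mouse stages, the late two-cell embryo, the E4.5 ICM and 2iES cells. The set was chosen from measured values. Among the 55385 genes in the deposited tables, 4658 coded for protein, had a mean FPKM (fragments per kilobase of transcript, scaled by the number of mapped fragments) of at least 5 in the DMSO libraries of all 3 stages, and had a symbol that did not begin with Mrp, Nduf, Psm, Polr, Rpl, Rps or Trmt. For each gene and stage the mean FPKM with dTAG13 was divided by the mean FPKM with DMSO, after 0.1 was added to both, and the 100 genes with the smallest maximum of the 3 ratios were kept. The ratios at these 3 stages are therefore given as a description without a test. The morula libraries did not enter the choice, and the morula was the stage at which the genes were tested.

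The study asked what the transcription factor GABPA does in pre-implantation development and in naive pluripotent cells, using a degron, a tag through which the small molecule dTAG13 triggers destruction of the tagged protein. All 18 RNA-seq libraries came from Gabpa-dTAG/dTAG embryos or cells, with the tag on both alleles, so the DMSO controls carried it too. Late two-cell embryos gave 3 libraries with DMSO and 3 with 1 µM dTAG13, added from the zygote. Morulae and the E4.5 ICM had 2 libraries with DMSO and 2 with 1 µM dTAG13, and 2iES cells, embryonic stem cells kept in medium with a pair of kinase inhibitors, had 2 libraries with DMSO and 2 after 24 h in 0.5 µM dTAG13. By the study's text, treatment of morulae ran from the four-cell stage, and degradation for the E4.5 ICM began at the preceding ICM stage. Each embryo library was a pool of embryos, the E4.5 ICM was obtained by immunosurgery and held EPI and PrE cells together, being taken by the study's text at the mid-blastocyst stage so as to precede a change in EPI cell number, and the 2iES cells were edited clones. Replicates were separate libraries of a group. The study's text calls those of late two-cell embryos, the E4.5 ICM and 2iES cells biological replicates. Where replicates did not come from separate collections their spread is technical.

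Expected counts summed to between 20449966 and 23718870 per library in late two-cell embryos, 9457933 and 12382705 in morulae, 18266057 and 20818291 in the E4.5 ICM and 20146785 and 27660132 in 2iES cells, so the morula libraries were the shallowest. *Gabpa* RNA does not report the loss of the protein. Its FPKM in morulae was 8.79 and 10.2 under DMSO versus 16.6 and 15.9 under dTAG13 (log2 fold change 0.74, standard error 0.20, adjusted p = 0.152, edgeR quasi-likelihood test, Benjamini-Hochberg method). Marker genes of the labelled stages were present in their own libraries. *Zscan4f*, a gene of the two-cell embryo, had an FPKM of at least 59.2 in every late two-cell library, *Nanog* and *Pou5f1* were at 33.7 or more in every E4.5 ICM and 2iES library, and *Gata4*, *Sox17* and *Gata6*, which mark PrE, were at 0.57 or less in every 2iES library. Of 12 PrE markers, 2 and 1 were at an FPKM of 1 or more in the 2iES libraries with DMSO and 4 and 3 in those with dTAG13. The highest there was *Dab2*, between 2.92 and 4.41. *Cdx2*, which marks TE, was between 5.20 and 5.78 in the 4 morula libraries. In the E4.5 ICM the summed FPKM of 13 TE markers was 1570 and 1574 under DMSO versus 4058 and 4101 under dTAG13, with 9 and 12 of the 13 at an FPKM of 1 or more. *Fabp3* made up most of that sum, at 1416 and 1407 under DMSO versus 2974 and 2933 under dTAG13. It was at 1050 or more in every 2iES library too. *Aqp3* went the other way, at 25.7 and 26.2 under DMSO versus 12.5 and 12.6 under dTAG13. The sum of 12 PrE markers was 767 and 772 under DMSO versus 1494 and 1497 under dTAG13, and that of 12 EPI markers 1258 and 1278 under DMSO versus 687 and 698 under dTAG13. Within the PrE sum *Dab2* was at 154 and 146 under DMSO versus 489 and 490 under dTAG13. *Sox17* and *Sox7* went the other way, at 111 and 116 versus 105 and 104, and 20.3 and 19.9 versus 15.73 and 15.25. *Foxa2* was nearly level, at 13.6 and 13.2 versus 13.9 and 15.8. Marker sums differed at other stages too. In 2iES cells the TE sum was 1284 and 1220 under DMSO versus 2599 and 2671 under dTAG13, and the EPI sum 980 and 1046 versus 693 and 647. In late two-cell embryos the sum of 11 oocyte markers was 1498, 1518 and 1502 under DMSO versus 1905, 2173 and 1873 under dTAG13. In bulk samples fewer cells of a type and less RNA per cell cannot be told apart, and the part of these marker shifts in the values below was not tested.

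GABPA belongs to the ETS family of transcription factors, which recognise DNA around a GGAA core, and it works in a complex with a GABPB partner that carries the activation domain. Its typical sites lie close to transcription start sites of genes that most cells use, among them genes for mitochondrial function and for making ribosomes. Such genes often have promoters rich in CG without a TATA box, and many lie head to head with a neighbour so that one short stretch of DNA serves both.

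The promoters of members that head the list, of members that changed in morulae and of a pair that shares one promoter are printed here from 120 bases before to 30 bases after the start site, 5′ to 3′ on the strand of the gene, because they show where the ETS core lies. They are RefSeq sequences of GRCm38.p6. Capitals mark the letters CCGGAA or, where the match is on the other strand, TTCCGG, extended to CCGGAAGT or ACTTCCGG where all 8 letters are present.
Exoc3, chr13:74208671-74208820, minus strand: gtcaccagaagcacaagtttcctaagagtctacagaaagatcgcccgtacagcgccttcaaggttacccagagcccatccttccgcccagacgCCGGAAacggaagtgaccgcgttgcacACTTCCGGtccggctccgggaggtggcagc
Surf2, chr2:26916288-26916437, plus strand: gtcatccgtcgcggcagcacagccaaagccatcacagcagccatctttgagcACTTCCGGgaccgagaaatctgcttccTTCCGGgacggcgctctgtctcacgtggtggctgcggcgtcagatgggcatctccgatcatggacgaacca
Exosc3, chr4:45320587-45320736, minus strand: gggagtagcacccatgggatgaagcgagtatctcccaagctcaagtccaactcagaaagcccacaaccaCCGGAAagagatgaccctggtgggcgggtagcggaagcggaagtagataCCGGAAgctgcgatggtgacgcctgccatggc
Shq1, chr6:100671128-100671277, minus strand: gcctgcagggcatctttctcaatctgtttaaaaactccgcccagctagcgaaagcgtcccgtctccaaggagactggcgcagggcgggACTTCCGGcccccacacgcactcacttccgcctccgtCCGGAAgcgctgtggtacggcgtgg
Tufm, chr7:126487235-126487384, plus strand: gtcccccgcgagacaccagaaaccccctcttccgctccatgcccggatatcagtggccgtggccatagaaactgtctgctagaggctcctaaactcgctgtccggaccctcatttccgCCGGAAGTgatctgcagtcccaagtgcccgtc
Synj2bp, chr12:81532882-81533031, minus strand: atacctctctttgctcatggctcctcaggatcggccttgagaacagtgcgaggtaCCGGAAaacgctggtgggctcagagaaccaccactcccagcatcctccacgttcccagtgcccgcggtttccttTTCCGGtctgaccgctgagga
Lyrm2, chr4:32800139-32800288, plus strand: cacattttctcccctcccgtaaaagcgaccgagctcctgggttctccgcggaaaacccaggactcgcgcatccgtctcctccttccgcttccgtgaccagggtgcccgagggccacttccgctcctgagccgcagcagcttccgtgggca
Krt10, chr11:99389335-99389484, minus strand: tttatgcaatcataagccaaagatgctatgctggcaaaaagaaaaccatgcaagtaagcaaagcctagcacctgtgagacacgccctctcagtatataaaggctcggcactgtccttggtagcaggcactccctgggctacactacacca
Timm23, chr14:32201862-32202011, minus strand: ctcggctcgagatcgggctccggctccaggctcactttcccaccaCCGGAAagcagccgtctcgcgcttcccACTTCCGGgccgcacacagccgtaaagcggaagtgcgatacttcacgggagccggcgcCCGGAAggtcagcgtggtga
*Exoc3*, *Surf2*, *Exosc3* and *Shq1*, all among the 10 members with the smallest maximum ratio, each had 2 separate cores in the printed stretch. *Tmem126a* and *Idh3b*, also among these 10 but not printed, had 1 core each. *Tufm* had 1, which spans the start site. *Synj2bp* had 2, neither extended to 8 letters. The *Timm23* stretch holds 3 cores and spans the annotated starts of *Timm23* and *Parg*, which are 51 bases apart on opposite strands, and reaches into both genes. The letters CCGGAA are not in the windows printed for *Lyrm2* and *Krt10*, and the window of *Krt10* holds the letters TATAAA.

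RefSeq promoter entries, from 250 bases before to 50 after the start, were matched for 83 of the 100 genes and for 3844 of the 4658 genes past the level filter. CCGGAAGT on either strand was present in 43 of the 83 (51.8%, Wilson 95% interval 41.2 to 62.2), against 13.0% of the genes past the level filter and 5.54% of all 16927 protein-coding genes with an entry. The shorter CCGGAA was present in 68 of the 83 (81.9%, Wilson 95% interval 72.3 to 88.7), against 38.0% and 19.6%. At least 2 separate copies of CCGGAA were found in 41 members (49.4%), against 11.7% of the genes past the level filter, and 16 members had 3 or more. The 8 letters contain the 6, so these counts are nested, and the head-to-head pairs count the same stretch for both genes. Of the 133 matches to CCGGAA in the members, 124 lay between 100 bases before and 50 bases after the start and 61 were on the strand of the gene, with a median position of -22. The 25 bases after the start held 45.8 matches per 100 member promoters and 8.99 per 100 promoters of the other genes past the level filter.

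**Figure D1:**
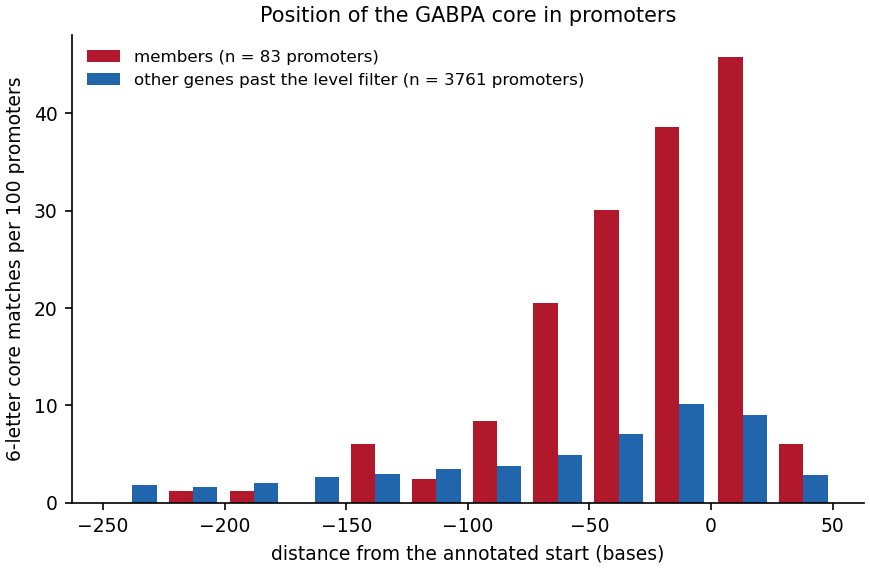
Matches to CCGGAA on either strand per 100 promoters, in bins of 25 bases along the distance from the RefSeq start site (horizontal axis, bases), for the 83 members with an entry and the 3761 other genes past the level filter. The members reach 45.8 matches per 100 promoters in the bin just after the start, where the other genes have 8.99.

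Other promoter letters were searched on both strands in the same window. CCAAT was in 22 of the 83 members (26.5%, against 42.4% of the genes past the level filter), the GC box GGGCGG in 47 (56.6%, against 68.7%) and the E-box CACGTG in 9 (10.8%, against 11.4%). TATAAA was in 5 (6.02%, against 6.48%), the NRF1 letters GCGCATGC in 4 (4.82%, against 7.34%), the YY1 letters AANATGGCG in 3 (3.61%, against 7.62%), and the CRE TGACGTCA (1.20%, against 4.24%) and the ZFP143 letters ACTACAA (1.20%, against 5.05%) in 1 each. The shares of the CCAAT and GC boxes were thus below, and that of the ETS core above, the shares over all genes past the level filter. These are counts of letters and not of bound sites.

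At the stages that chose them, the median ratio of dTAG13 to DMSO over the 100 members was 0.235 in late two-cell embryos (quartiles 0.163 and 0.351), 0.244 in the E4.5 ICM (0.128 and 0.330) and 0.144 in 2iES cells (0.0738 and 0.246). Over all 4658 genes past the level filter the medians were 0.984, 0.941 and 0.868. The largest ratio of a member was in late two-cell embryos for 50 genes, in the E4.5 ICM for 37 and in 2iES cells for 13, so the early embryo set the limit most often. A ratio under 0.1 was found for 13 members in late two-cell embryos, 22 in the E4.5 ICM and 34 in 2iES cells. The dTAG13 libraries all lay below the DMSO libraries for 99, 100 and 100 members, where 26.1%, 50.8% and 52.0% of the genes past the level filter did so; the rule fixes this count, and nothing is read from it. The single libraries were alike, with medians of -2.27, -2.03 and -1.97 on the log2 scale against the DMSO mean in the late two-cell dTAG13 libraries, -2.08 and -2.04 in the E4.5 ICM and -2.81 and -2.78 in 2iES cells. The share of counts from mitochondrial transcripts differed between the arms, in a direction that depended on the stage. It was higher with dTAG13 in 2iES cells, at 0.371% and 2.17% under DMSO versus 5.16% and 4.51% under dTAG13. The same held in the E4.5 ICM, at 3.88% and 3.78% against 6.02% and 5.96%. In morulae it was lower with dTAG13, at 6.7267% and 5.5998% under DMSO versus 4.4745% and 5.2519% under dTAG13. In late two-cell embryos the arms overlapped. The part of this share in these ratios and in the morula values was not tested.

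**Figure D2:**
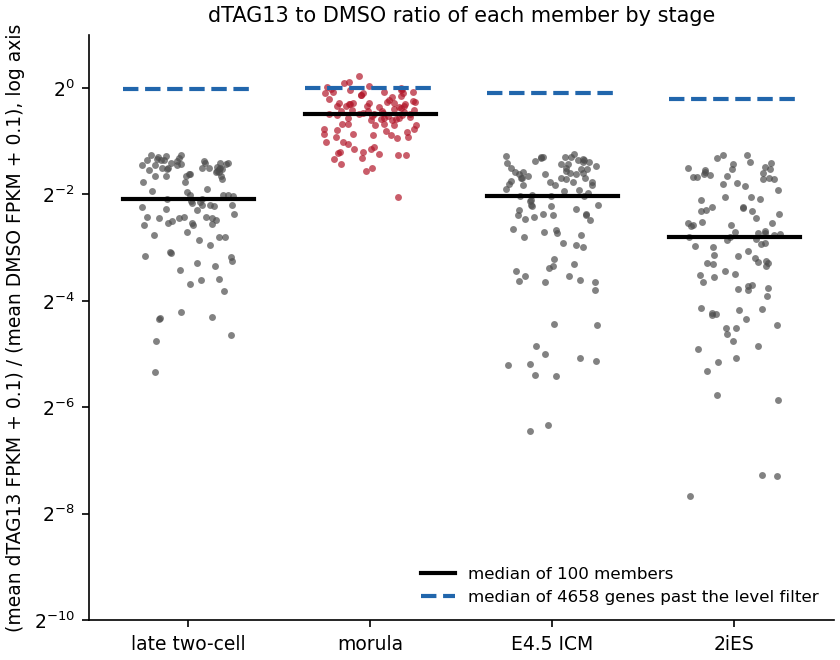
Ratio of mean FPKM with dTAG13 to mean FPKM with DMSO (log axis, 0.1 added to both) for the 100 members at each of the 4 stages, each point a gene, with the median of the members as a solid line and that of all genes past the level filter as a dashed line. The late two-cell, E4.5 ICM and 2iES ratios chose the genes and lie at or under 0.421, and the morula ratios, which did not, run from 0.241 to 1.16.

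The last genes inside the limit of 100 were *Pmpca*, *Dalrd3* and *Tbrg1*, with maximum ratios of 0.417, 0.418 and 0.421. The first outside it were *Impact*, *Ago3* and *Gm20604*, with 0.425, 0.425 and 0.426, so the limit cuts a continuous series. In all, 149 genes past the level filter had a ratio under 0.5 at each of the 3 stages. Without the rule on symbols, 10 of the left-out genes would have been among the 100, led by the proteasome subunit gene *Psmb4* with a maximum ratio of 0.0845.

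*Exoc3* (ENSMUSG00000034152.6, chromosome 13 from 74169488 to 74208732, minus strand), which encodes a subunit of the exocyst that tethers secretory vesicles at the plasma membrane, had the smallest maximum ratio, 0.0782. Its FPKM was 23.3, 24.3 and 18.1 under DMSO versus 1.53, 1.75 and 1.58 under dTAG13 in late two-cell embryos, 40.6 and 45.5 under DMSO versus 1.69 and 2.10 under dTAG13 in the E4.5 ICM and 18.8 and 18.2 under DMSO versus 0.57 and 0.34 under dTAG13 in 2iES cells. Every dTAG13 library of these stages was at 2.10 or less and every DMSO library at 18.1 or more. In morulae it was 42.2 and 41.8 under DMSO versus 15.9 and 13.4 under dTAG13, without overlap, a log2 fold change of -1.11 (SE 0.24, adjusted p = 0.0682, edgeR quasi-likelihood test, Benjamini-Hochberg method), which missed the threshold of 0.05.

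Genes for building ribosomes and processing RNA were among the members lowest with dTAG13. *Surf2* (ENSMUSG00000014873.15, chromosome 2 from 26916367 to 26920183, plus strand), which encodes a nucleolar protein, had an FPKM of 92.1, 104 and 96.8 under DMSO versus 1.20, 2.18 and 3.60 under dTAG13 in late two-cell embryos, 67.9 and 65.1 under DMSO versus 5.43 and 5.10 under dTAG13 in the E4.5 ICM and 102 and 86.6 under DMSO versus 4.11 and 6.41 under dTAG13 in 2iES cells. In morulae the values were 73.7 and 97.2 under DMSO versus 55.6 and 64.4 under dTAG13, with the dTAG13 libraries lower, at a ratio of 0.703. *Shq1* (ENSMUSG00000035378.17, chromosome 6 from 100568256 to 100671157, minus strand), an assembly factor for the RNA-protein particles that modify ribosomal RNA, was expressed at a lower level, at 7.53, 10.1 and 6.50 under DMSO versus 0.85, 0.60 and 0.53 under dTAG13 in late two-cell embryos and 8.17 and 8.02 under DMSO versus 2.85 and 3.51 under dTAG13 in morulae. In morulae its log2 fold change of -1.01 (standard error 0.31) had an adjusted p of 0.197 by edgeR. *Ccdc137*, which encodes a chromatin-associated protein, was at 15.5 and 13.3 under DMSO versus 0.080 and 0.080 under dTAG13 in the E4.5 ICM and 43 and 32.8 under DMSO versus 8.31 and 17.1 under dTAG13 in morulae. *Exosc3* (ENSMUSG00000028322.11, chromosome 4 from 45316613 to 45342732, minus strand) and *Exosc4* encode subunits of the RNA exosome, which trims and degrades RNA. *Exosc3* was at 125 and 112 under DMSO versus 2.08 and 2.06 under dTAG13 in 2iES cells and 109 and 137 under DMSO versus 57.7 and 76.6 under dTAG13 in morulae. *Exosc4* was at 119 and 86.2 under DMSO versus 7.78 and 10.9 under dTAG13 in 2iES cells and 76.8 and 86.2 under DMSO versus 69.9 and 78.9 under dTAG13 in morulae. In morulae the groups were apart for *Exosc3* and overlapped for *Exosc4*. Of 125 ribosome assembly genes past the level filter, 8 were members (6.40%, where members make up 2.15% of all genes past the filter). This list and those below were compiled by hand with earlier results of these data known. Their shares of members therefore describe the set and are no evidence of enrichment. They also include *Nip7*, *Ebna1bp2*, *Rpf2*, *Zfp330* and *Zpr1*. In morulae 13 of the 125, members included, were lower and 11 higher at an unadjusted p under 0.05, where 5.7% of the genes past the level filter were lower and 10.9% higher. None had an adjusted p under 0.05 by edgeR. The 8 members had a median of -0.40 on the log2 scale and the other 117 genes one of 0.05.

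Nuclear genes for mitochondria were covered by 4 lists. Those for protein import, assembly of the respiratory chain, iron-sulfur clusters and translation in the organelle held 4, 5, 3 and 4 members, which were 10.8% of 37, 15.6% of 32, 15.8% of 19 and 13.8% of 29 listed genes past the level filter. *Lyrm2* (ENSMUSG00000045854.4, chromosome 4 from 32800253 to 32801559, plus strand), a small LYR-motif protein of mitochondria linked to complex I, was at 60.7, 50.8 and 56 under DMSO versus 8.59, 10.3 and 11 under dTAG13 in late two-cell embryos, 62.5 and 58.5 under DMSO versus 1.44 and 1.96 under dTAG13 in the E4.5 ICM and 97.7 and 96.6 under DMSO versus 0.86 and 0.20 under dTAG13 in 2iES cells. *Tmem126a* (ENSMUSG00000030615.12, chromosome 7 from 90450700 to 90457229, minus strand), an inner membrane protein needed to assemble complex I, was at 41.3, 36.8 and 58.9 under DMSO versus 2.58, 1.69 and 2.82 under dTAG13 in late two-cell embryos and 321 and 330.3 under DMSO versus 41.4 and 48.6 under dTAG13 in 2iES cells. *Sco1*, a copper chaperone for cytochrome oxidase, was one of the members with the lowest control level, at 6.44 and 5.42 under DMSO versus 0.95 and 1.41 under dTAG13 in 2iES cells. *Slirp*, which binds mitochondrial messenger RNA, was one of the highest, at 216, 174 and 191 under DMSO versus 64.9, 60.6 and 82.7 under dTAG13 in late two-cell embryos and 985 and 1176 under DMSO versus 308 and 354 under dTAG13 in 2iES cells. In all 4 genes the arms did not overlap, although their control levels were far apart. Of the words of 31 bases in *Slirp*, 94.1% occur in other genes on the opposite strand, 91.2% in *Snw1*. The kit did not keep strand, so reads of these genes cannot be told apart.

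*Timm23* (ENSMUSG00000013701.13, chromosome 14 from 32180162 to 32201898, minus strand), the channel of the inner membrane through which proteins enter the matrix, had the highest control level of all members, a mean DMSO FPKM of 997 over the 4 stages. It was at 726, 722 and 798 under DMSO versus 226, 256 and 299 under dTAG13 in late two-cell embryos and 1101 and 969 under DMSO versus 76.1 and 77.2 under dTAG13 in 2iES cells. *Timm10b*, a small chaperone of the intermembrane space, was at 286 and 246 under DMSO versus 11.5 and 14.7 under dTAG13 in 2iES cells. There *Mtx2*, a metaxin of the outer membrane, was at 90.1 and 77.7 under DMSO versus 12.3 and 15.4 under dTAG13. *Pmpca*, the alpha subunit of the peptidase that removes import signals, was at 36.8 and 26.9 under DMSO versus 11.7 and 14.7 under dTAG13. In morulae the log2 fold changes of these 4 import genes were -0.27, -0.34, -0.04 and -0.41. *Nfs1*, the cysteine desulfurase that supplies sulfur to iron-sulfur clusters, was at 28.9 and 31 under DMSO versus 2.30 and 2.44 under dTAG13 in the E4.5 ICM and 34.9 and 28.3 under DMSO versus 12.1 and 14.1 under dTAG13 in morulae. *Nubp1*, a scaffold of cytosolic cluster assembly, was at 4.33, 5.56 and 5.67 under DMSO versus 0, 0.070 and 0.42 under dTAG13 in late two-cell embryos, the lowest control level among the stages, and 40.7 and 52.2 under DMSO versus 28.6 and 29 under dTAG13 in morulae. *Bola2*, a cytosolic partner in cluster transfer, was at 633 and 508 under DMSO versus 296 and 319 under dTAG13 in morulae. The 3 iron-sulfur genes did not overlap between arms in morulae, with log2 fold changes of -0.94, -0.60 and -0.80 and adjusted p-values of 0.117, 0.255 and 0.114 by edgeR, all above 0.05.

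*Tufm* (ENSMUSG00000073838.10, chromosome 7 from 126487361 to 126490731, plus strand) encodes the elongation factor that brings transfer RNA to the mitochondrial ribosome. Its FPKM was 15.5, 17.2 and 13.5 under DMSO versus 0, 0.43 and 1.00 under dTAG13 in late two-cell embryos, 79.7 and 79.7 under DMSO versus 19.7 and 19 under dTAG13 in the E4.5 ICM and 63.9 and 48.5 under DMSO versus 9.29 and 10.2 under dTAG13 in 2iES cells. The late two-cell dTAG13 libraries were near 0, and those of the later stages kept a clear level. *Pdf*, the deformylase of mitochondrial proteins, was at 47.9 and 35.8 under DMSO versus 14 and 15.2 under dTAG13 in 2iES cells. *Rars2*, the mitochondrial arginyl-tRNA synthetase, was at 77.7 and 72.4 under DMSO versus 7.14 and 8.02 under dTAG13 in 2iES cells and 20.2 and 35 under DMSO versus 30.8 and 28 under dTAG13 in morulae, where the arms overlapped. The 29 genes of the list for mitochondrial translation and mitochondrial DNA had, members included, 6 lower and 1 higher in morulae at an unadjusted p under 0.05 (5.7% and 10.9% of the genes past the level filter). The gene among the 6 with an adjusted p under 0.05 was *Tufm*. *Idh3b*, a subunit of the isocitrate dehydrogenase of the citric acid cycle and on none of the lists, was at 139 and 114 under DMSO versus 6.11 and 7.68 under dTAG13 in 2iES cells and 148 and 139.7 under DMSO versus 78.9 and 99 under dTAG13 in morulae. *Synj2bp* (ENSMUSG00000090935.10, chromosome 12 from 81497941 to 81532911, minus strand), an anchored protein of the outer membrane, was at 14.5, 18.8 and 15.2 under DMSO versus 0.95, 0.22 and 0.93 under dTAG13 in late two-cell embryos, 24.8 and 29.8 under DMSO versus 6.99 and 8.27 under dTAG13 in the E4.5 ICM and 25.3 and 28.5 under DMSO versus 9.29 and 9.03 under dTAG13 in 2iES cells. *Ccdc51*, a subunit of a mitochondrial potassium channel, was among the lowest members, at 3.53, 4.95 and 6.80 under DMSO versus 0.77, 2.07 and 0.67 under dTAG13 in late two-cell embryos.

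Genes that modify transfer RNA gave 6 members of 45 listed genes past the level filter (13.3%), besides the Trmt symbols that the rule leaves out. *Mettl6* (ENSMUSG00000021891.8, chromosome 14 from 31473578 to 31495040, minus strand), a methyltransferase that makes 3-methylcytidine in serine tRNA, was at 118, 142 and 120.2 under DMSO versus 19.4, 21.5 and 24.1 under dTAG13 in late two-cell embryos, 44.4 and 40.6 under DMSO versus 1.14 and 0.65 under dTAG13 in the E4.5 ICM and 21.6 and 39.1 under DMSO versus 10.1 and 18 under dTAG13 in morulae. *Kti12*, a cofactor of the Elongator complex, was at 43.9 and 41.4 under DMSO versus 1.05 and 1.20 under dTAG13 in the E4.5 ICM and 31.1 and 33 under DMSO versus 18.7 and 18.8 under dTAG13 in morulae. *Tprkb*, a subunit of the KEOPS complex, was at 66.1 and 70.4 under DMSO versus 34.3 and 50.1 under dTAG13 in morulae. These 3 did not overlap between the arms, but *Thumpd3*, a tRNA guanine methyltransferase, did, at 29.8 and 42.1 under DMSO versus 30.5 and 39.3 under dTAG13. In morulae 10 of the 45 genes, members included, were lower and 5 higher at an unadjusted p under 0.05 (5.7% and 10.9% of the genes past the level filter), and none had an adjusted p under 0.05 by edgeR. The members had a median of -0.70 on the log2 scale and the other 39 genes one of -0.06. Of 41 genes for translation initiation, 4 were members (9.76%). *Eif3i*, a subunit of the initiation factor eIF3, was at 433 and 442 under DMSO versus 67.7 and 64.5 under dTAG13 in 2iES cells and 271 and 312 under DMSO versus 292 and 274 under dTAG13 in morulae. *Eif2b2*, a subunit of the exchange factor eIF2B, was at 90.8 and 72.8 under DMSO versus 9.04 and 7.94 under dTAG13 in 2iES cells. *Eif4e2*, which binds the messenger cap, was at 585 and 605 under DMSO versus 183 and 189 under dTAG13 there. The members of this list had a morula median of -0.12 and the other 37 genes one of 0.06, a smaller gap than for the tRNA genes. Of the 41, members included, 2 were lower and 7 higher in morulae at an unadjusted p under 0.05 (5.7% and 10.9% of the genes past the level filter).

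Members that serve DNA synthesis were 4 of 55 replication genes (7.27%) and 4 of 46 nucleotide genes (8.70%). *Rnaseh2b* (ENSMUSG00000021932.13, chromosome 14 from 62292589 to 62372992, plus strand), a subunit of the enzyme that removes ribonucleotides from DNA, was at 9.30, 9.65 and 7.43 under DMSO versus 0.76, 0.090 and 1.81 under dTAG13 in late two-cell embryos and 133 and 118 under DMSO versus 5.20 and 6.09 under dTAG13 in 2iES cells. In morulae it was at 80 and 90.6 under DMSO versus 79.8 and 82.8 under dTAG13. Its control level was higher in morulae than in late two-cell embryos, and in morulae the arms overlapped. *Mcm3*, a subunit of the replicative helicase, was at 67.9 and 77.5 under DMSO versus 21.7 and 25.6 under dTAG13 in 2iES cells and 101 and 106 under DMSO versus 41.5 and 48.4 under dTAG13 in morulae, a log2 fold change of -1.01 with an adjusted p of 0.0557 by edgeR. The morula values of *Mcm3* were thus well apart, with the adjusted p just above 0.05. *Rfc3*, a subunit of the clamp loader, was at 134 and 129.7 under DMSO versus 9.89 and 10.2 under dTAG13 in 2iES cells. *Orc3*, of the origin recognition complex, was at 43.7 and 44.9 under DMSO versus 13.8 and 13.9 under dTAG13 there. *Itpa* (ENSMUSG00000074797.11, chromosome 2 from 130667610 to 130681614, plus strand), which removes inosine triphosphate from the nucleotide pool, was at 88.8 and 84.3 under DMSO versus 2.90 and 2.95 under dTAG13 in the E4.5 ICM and 67 and 91 under DMSO versus 35.3 and 36 under dTAG13 in morulae, a log2 fold change of -1.09 with an adjusted p of 0.0501 by edgeR. *Tyms*, thymidylate synthase, was at 510.5 and 453 under DMSO versus 47.6 and 49.4 under dTAG13 in 2iES cells and 423 and 628 under DMSO versus 551 and 591 under dTAG13 in morulae. *Dtymk*, thymidylate kinase, was at 812 and 677 under DMSO versus 120.4 and 129 under dTAG13 in 2iES cells and 450.1 and 463 under DMSO versus 335 and 386 under dTAG13 in morulae. Of this pair of enzymes that make thymidine nucleotides, the morula arms overlapped for *Tyms* and were apart for *Dtymk*. *Parg*, which removes poly(ADP-ribose), and *Nthl1*, a DNA glycosylase, were the 2 members of 30 repair genes.

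Membrane traffic and protein handling gave 7 of 57, 4 of 46 and 6 of 44 listed genes for trafficking (12.3%), the endoplasmic reticulum (8.70%) and chaperones with quality control (13.6%). *Blzf1*, a golgin, was at 13.6 and 15.3 under DMSO versus 1.56 and 0.79 under dTAG13 in 2iES cells and 12.1 and 13.6 under DMSO versus 5.71 and 7.75 under dTAG13 in morulae. *Entr1*, an endosomal protein, was at 58.9 and 45.5 under DMSO versus 4.88 and 5.84 under dTAG13 in 2iES cells and 19.7 and 23.8 under DMSO versus 13.5 and 13.4 under dTAG13 in morulae. *Rab24*, a small GTPase tied to autophagy, was at 89.8 and 68.6 under DMSO versus 7.55 and 10.1 under dTAG13 in 2iES cells, with 54.4% of its words shared with the antisense gene *Prelid1*. All 3 were without overlap in the named libraries. *Ssr2*, a subunit of the translocon-associated complex, was at 1151 and 992 under DMSO versus 399 and 395 under dTAG13 in 2iES cells and 199.6 and 269 under DMSO versus 165 and 222 under dTAG13 in morulae. *Tmem208*, which takes part in insertion of membrane proteins, was at 279.5 and 279 under DMSO versus 97.1 and 102 under dTAG13 in 2iES cells. *Pmm2*, the phosphomannomutase of N-glycosylation, was at 50.3 and 53.7 under DMSO versus 14.5 and 15.2 under dTAG13 in 2iES cells and at 33.5 and 53.6 under DMSO versus 52.2 and 49.1 under dTAG13 in morulae, where its log2 fold change of 0.27 was the highest of all members. In morulae the groups overlapped for *Ssr2* and *Pmm2*. *Ppid*, a cyclophilin partner of HSP90, was at 233 and 229 under DMSO versus 5.57 and 6.91 under dTAG13 in the E4.5 ICM and 103 and 125 under DMSO versus 77.3 and 76.5 under dTAG13 in morulae. *Pomp*, which helps assemble the proteasome, was at 361 and 423 under DMSO versus 18.6 and 15.4 under dTAG13 in 2iES cells and 780.4 and 726 under DMSO versus 476 and 571 under dTAG13 in morulae. *Fbxo22*, the substrate receptor of a ubiquitin ligase, was at 64.4 and 57.3 under DMSO versus 16.7 and 17.2 under dTAG13 in 2iES cells. *Ppid* and *Pomp* had both dTAG13 libraries lower in morulae too. The endoplasmic reticulum members had a morula median of -0.14, the trafficking members one of -0.49 and the chaperone members one of -0.41, against 0.12, 0.20 and 0.14 for the other genes of each list. At an unadjusted p under 0.05 in morulae, members included, 1, 7 and 1 genes of these lists were lower and 6, 11 and 4 higher. Of the genes past the level filter 5.7% were lower and 10.9% higher.

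The exosome list gave 2 members of 20 genes (10.0%). In morulae 2 of the 20 were lower and 6 higher at an unadjusted p under 0.05 (5.7% and 10.9% of the genes past the level filter). Of other lists, members were 2 of 64 spliceosome genes (3.13%), 1 of 50 Mediator and general transcription factor genes (2.00%) and 1 of 21 cytosolic tRNA synthetases (4.76%). In all, 67 members were on at least 1 of the 17 lists and 33 on none. Among the latter, *Krt10* (ENSMUSG00000019761.10, chromosome 11 from 99385254 to 99389364, minus strand), a keratin of the epidermis, had the smallest ratio in 2iES cells, 0.0049, at 32.8 and 30.6 under DMSO versus 0.080 and 0.030 under dTAG13. In morulae it was at 36.2 and 38.1 under DMSO versus 15.2 and 21.6 under dTAG13, a log2 fold change of -1.08 (adjusted p = 0.13 by edgeR). *Impa1*, inositol monophosphatase, was at 67.2 and 58.7 under DMSO versus 12.7 and 14 under dTAG13 in 2iES cells and 9.27 and 10.8 under DMSO versus 2.36 and 6.06 under dTAG13 in morulae, without overlap at either stage.

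In morulae, whose libraries had no part in the choice, the median member was lower with dTAG13. Its size is not compared with that at the other stages, since a choice by the smallest ratios there gives stronger values at those stages by itself. All 100 passed the filter of at least 10 counts in at least 2 libraries. Relative to the DMSO mean, the median member stood at -0.11 and 0.10 on the log2 scale in the DMSO libraries and at -0.51 and -0.45 in the dTAG13 libraries, while the median gene past the level filter stood at -0.06, 0.05, 0.02 and -0.05. The dTAG13 libraries both lay under the DMSO libraries for 72 members, where 27.7% of all 13667 genes tested and 26.2% of those past the level filter did so, and both lay above them for 0, against 17.3% and 22.6%. In the other 28 the arms overlapped. The fitted log2 fold change was negative for 91 members and positive for 9 (51.9% of genes tested and 41.6% of those past the level filter were negative). Its median was -0.39 (quartiles -0.77 and -0.19), against -0.02 for all genes tested, 0.07 for those past the level filter and -0.33 for the 100 genes ranked just after the members. The median FPKM ratio was 0.715, 18 members were under 0.5 and 1 under 0.25. Across the 100 genes, which are not independent replicates, Spearman's rho between the morula ratio and the ratio at the other stages was 0.258 for the late two-cell embryo, 0.258 for the E4.5 ICM and 0.106 for 2iES cells.

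At an unadjusted p under 0.05, 42 members were lower in morulae (6.91% of all genes tested and 5.7% of those past the level filter were) and 0 higher (6.66% of all genes). After adjustment over all 13667 genes tested, edgeR called 3 members lower (0.205% of all genes) and 0 higher (0.161%), and DESeq2 called 11 lower (0.615% of all genes) and 0 higher (0.563%). Across the alternative settings, 73 to 99 members had a negative log2 fold change. The lowest count came without DMSO replicate 2, which leaves 1 DMSO library, with 27 members positive and a median of -0.27. The 3 genes called by edgeR in the reported fit were *Lyrm2*, *Tufm* and *Synj2bp*. *Lyrm2* was at 135 and 127 under DMSO versus 22.2 and 40.8 under dTAG13, with both dTAG13 libraries far below both DMSO libraries. It fell by 1.94 on the log2 scale (standard error 0.27, adjusted p = 0.0041, edgeR quasi-likelihood test, Benjamini-Hochberg method), and kept an adjusted p under 0.05 in 11 of 11 other settings. *Tufm* was at 68.7 and 67 under DMSO versus 28.1 and 30 under dTAG13, with the replicates of each arm close together. It fell by 1.17 (standard error 0.20, adjusted p = 0.0219 by the same edgeR test), a call that was lost without dTAG13 replicate 1 (adjusted p = 0.110) and with all 18 libraries in 1 fit (0.0927). A share of 58.2% of its 31-base words is found in the gene *Gm9755*, between which reads could be divided. *Synj2bp* was at 24.8 and 20 under DMSO versus 6.16 and 10.2 under dTAG13, again without overlap. It fell by 1.53 (standard error 0.27, adjusted p = 0.0239 by the same edgeR test), lost without DMSO replicate 1 (0.0790) or without dTAG13 replicate 1 (0.115).

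Below these came *Itpa*, *Ccdc137*, *Mcm3*, *Impa1*, *Exoc3* and *Mettl6*, with adjusted p-values between 0.0501 and 0.0741 by edgeR and log2 fold changes from -1.59 to -1.01. *Gm20498*, a readthrough gene that starts 6 bases from *Synj2bp* and shares 63.3% of its words with *Cox16* and 12.9% with *Synj2bp*, had a log2 fold change of -1.50 with a standard error of 0.49. At the other end, the 5 most positive values were those of *Pmm2* (0.27), *Rars2* (0.19), *Tyms* (0.11), *Wdr83* (0.10) and *Rnaseh2b* (0.10), with standard errors between 0.20 and 0.27, and all 5 were negative without DMSO replicate 1. The TE marker sum in morulae was 1884 and 2122 with DMSO, with 11 of 13 genes at an FPKM of 1 or more, and 2444 and 2354 with dTAG13, with 12 and 13. The *Cdx2* values of the arms overlapped. *Fabp3* made up most of the sum, at 1294 and 1540 with DMSO versus 1854 and 1722 with dTAG13. *Aqp3* went the other way, at 71.1 and 46.9 with DMSO versus 37.3 and 33.1 with dTAG13. The EPI sum was 588 and 591 against 502 and 563. The part of these shifts in the morula values was not tested.

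**Figure D3:**
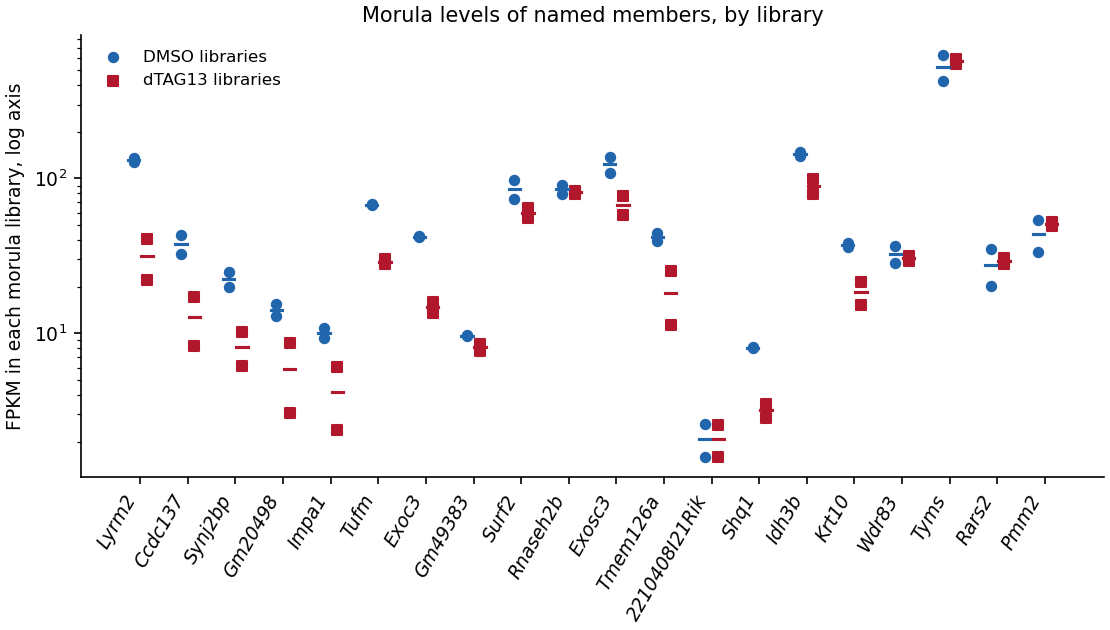
FPKM (log axis) of the named members at the head of the list or with the largest and smallest morula changes, with 2 DMSO libraries (blue circles) and 2 dTAG13 libraries (red squares) per gene and a bar at the mean of each arm. *Lyrm2*, *Tufm* and *Synj2bp* have both squares well under both circles, and *Tyms*, *Rars2* and *Pmm2* have squares within the range of the circles.

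**Figure D4:**
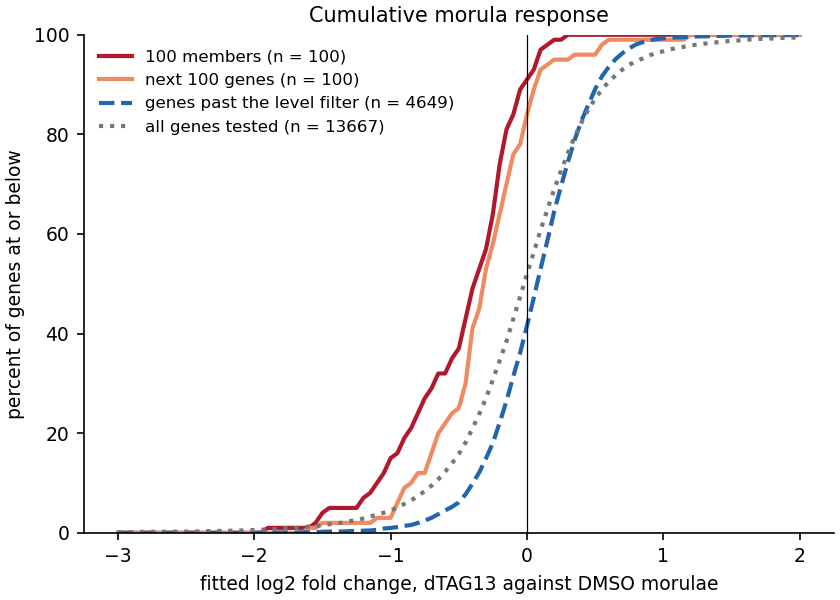
Cumulative percent of genes (vertical axis) at or below a fitted morula log2 fold change of dTAG13 against DMSO (horizontal axis) for the 100 members, the next 100 genes, the genes past the level filter and all genes tested. The curves reach the median at -0.39, -0.33, 0.07 and -0.02 in that order.

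Members were split by the letters CCGGAAGT. The 43 members with CCGGAAGT had a median morula log2 fold change of -0.34 and the 40 with an entry but without these letters one of -0.59. At the stages that chose the genes, the median ratios with and without the letters were 0.248 and 0.246 in late two-cell embryos, 0.219 and 0.273 in the E4.5 ICM and 0.102 and 0.171 in 2iES cells. Among the other genes past the level filter the morula medians were -0.04 for 455 genes with the letters and 0.09 for 3306 without.

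With DMSO the members were expressed at ordinary levels in late two-cell embryos and somewhat above the other genes later. Their median control FPKM was 34.8 in late two-cell embryos, 38.7 in morulae, 59.1 in the E4.5 ICM and 58.6 in 2iES cells, against 36.4, 31.9, 40.9 and 33.9 for all genes past the level filter. The median percentile of a member among those genes was 48.5, 55.5, 60.3 and 63.4 in the same order. An FPKM of 100 or more was reached by 23, 28, 32 and 34 members. The level was highest in 2iES cells for 36 members, in the E4.5 ICM for 31, in late two-cell embryos for 20 and in morulae for 13. It was lowest in late two-cell embryos for 53 and in morulae for 27. The exception below an FPKM of 5 in morulae was *2210408I21Rik*, with 1.59 and 2.58 under DMSO versus 1.60 and 2.57 under dTAG13. *Timm23*, *Slirp* and *Ssr2* had the highest means over the stages (997, 732 and 613) and *Mtbp*, *Sco1* and *Ccdc51* the lowest (8.08, 8.16 and 8.30).

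**Figure D5:**
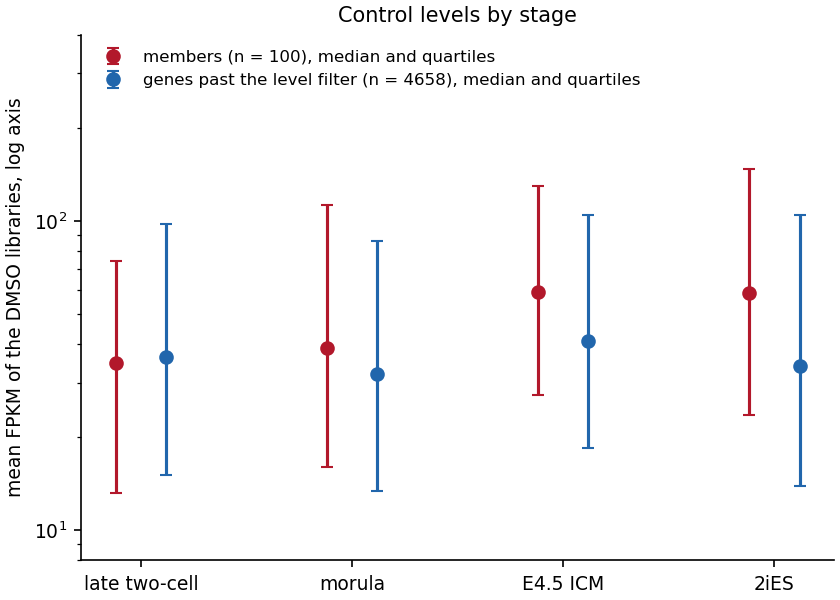
Mean FPKM of the DMSO libraries (log axis) at the 4 stages, with the median (point) and quartiles (bar ends) over the members (red) and over all genes past the level filter (blue). The member medians are 34.8, 38.7, 59.1 and 58.6, and those of all genes past the filter 36.4, 31.9, 40.9 and 33.9.

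Several members are neighbours. An annotated protein-coding gene on the other strand started within 1000 bases upstream of 18 members (18%), against 14.3% of the genes past the level filter and 6.79% of all protein-coding genes. Both genes were members in 4 pairs, *Rars2* with *Orc3* (starts 13 bases apart), *Tmem234* with *Eif3i* (20), *Entr1* with *Pmpca* (23) and *Timm23* with *Parg* (51). *Timm23* and *Parg* had ratios of 0.348 and 0.366 in late two-cell embryos, 0.194 and 0.205 in the E4.5 ICM and 0.791 and 0.791 in morulae, although their control levels were far apart. In 2iES cells their ratios differed, at 0.0742 and 0.233. *Rars2* and *Orc3* both had overlapping arms in morulae. In the *Tmem234* and *Eif3i* pair the morula values were 109 and 115 under DMSO versus 76.3 and 75.7 under dTAG13 for *Tmem234*, without overlap. *Eif3i* overlapped, as given above. The 4 partners that passed the level filter without being members, *Slf1*, *Cog8*, *Adprm* and *Tsc2*, had a median ratio of 0.750 in late two-cell embryos, 0.191 in the E4.5 ICM, 0.199 in 2iES cells and 0.561 in morulae. *Surf2* overlaps the member *Surf1* over 164 bases at their 5′ ends. The members were also compact, with a median gene length of 12392 bases and 7 exons against 21064.5 bases and 9 exons for the genes past the level filter.

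Some values carry shared sequence. In 11 members more than 50% of the 31-base words occur in transcripts of another gene, in 45 members fewer than 5%. *Gm49383* (maximum ratio 0.0803) and *Gm49384* (0.169) are readthrough models that overlap each other over 7266 bases and share 95.2% and 96.9% of their words with other genes (65.1% and 73.4% with *Dnaaf2*), so the division of reads between them is uncertain. *Gm49383* was listed at 18.2 and 13.1 under DMSO versus 0 and 0 under dTAG13 in 2iES cells, at least 114-fold lower against a floor of 3 counts. *Timm23* shares 63.5% of its words with other genes (57.7% with *Gm10273*), *Gm14139* 62.7% (47.8% with *Zfp345*), *Pdf* 76.5% (74.7% with *Cog8*) and *Sssca1* 63.3% (50.8% with a second gene of the same symbol). *Kti12* shares 50.3% with the antisense gene *A730015C16Rik*. The other members named above share less than 50%.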

How the data were processed

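The 18 RNA-seq libraries were analysed from the gene tables that the authors deposited, which hold expected counts, TPM and FPKM per gene. Per the study's methods, reads were trimmed with Trimmomatic (version 0.39 in the submitters' processing notes), aligned to GRCm38 with STAR and quantified with RSEM, and complementary DNA was made with SMART-Seq v4 and Nextera XT kits, which do not keep strand. The expected counts deposited by the authors are not normalized and were rounded to whole numbers for testing. The FPKM values deposited by the authors gave levels and ratios, and the TPM values deposited by the authors an alternative to them. Genes were named from GENCODE M21, in which 241 identifiers had no entry. The CUT&RUN, ATAC-seq and histone data were not analysed here.

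The members and the lists of functions and markers were chosen with earlier results of these data known, so the late two-cell, E4.5 ICM and 2iES ratios were not tested. The 4 morula libraries were compared with edgeR 4.0.16 (limma 3.58.1, R 4.3.3) using TMM scaling and the quasi-likelihood test, over the 13667 genes that had 10 counts or more in 2 or more libraries, with Benjamini-Hochberg adjustment over all of them and a threshold of 0.05. The comparison was also run on simulated data, from which no result is drawn here. DESeq2 1.42.0, other scalings, no filter, all 18 libraries in 1 fit, a replicate block and leaving out each library were alternatives. Other steps used Python 3.11.15, pandas 2.3.3 and numpy 2.4.6. Morula replicates differed beyond sampling noise, with a variance of 13.2 (DMSO) and 8.17 (dTAG13) times that of sampling. Wilson intervals at 95% and the floor of 3 counts cover counting error only.

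Promoters were RefSeq sequences of GRCm38.p6, positions are counted from 1 at the start site with -1 before it, and matches on the other strand are placed at their leftmost base. Gene coordinates are GENCODE M21 on GRCm38. A gene's shared sequence is the share of its words of 31 bases that also occur in another gene's transcripts. Named genes followed a rule. They are *Gabpa*, the 10 members with the smallest maximum ratio, 3 genes on either side of the limit, members called in morulae, the 5 largest and 5 smallest morula changes, up to 3 members per function list, the 3 highest and 3 lowest control levels, and members that share a promoter or most of their sequence. Other genes named only within a list or as a marker, neighbour or source of shared sequence were chosen after their values were seen.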

Additional observations from a re-analysis of the deposited data

How the results depend on the processing

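The number of members lower in morulae at an adjusted p under 0.05 depended on the setting, and that of members higher was 0 in every setting run. Against 3 in the reported fit, it was 3 with DESeq2 size factors and with thresholds on fold change and FPKM added, 5 with upper quartile scaling, 11 with library totals only, 11 with DESeq2, 17 with no filter on low counts and 18 with all 18 libraries in 1 fit. Leaving out a library gave 2 (dTAG13 replicate 1 removed), 3 (DMSO replicate 1), 9 (DMSO replicate 2) and 10 (dTAG13 replicate 2). As shares of all genes tested the calls were 0.205% in the reported fit, 0.241% with upper quartile scaling, 0.644% with library totals, 0.615% with DESeq2, 0.721% with no filter, 1.62% with 18 libraries, 1.47% with the block and 0.128% to 1.64% with a library removed. With a replicate block there were 19. Libraries with the same number share only that number, and with 2 pairs the correlation of their deviations was 0.02, so the block does not stand for a shared origin. The median log2 fold change of the members stayed negative, between -0.51 and -0.27 when a library was left out. The cause of the moves in counts was not tested.

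The median ratio with a pseudocount of 1 in place of 0.1 was 0.250 in the E4.5 ICM and 0.162 in 2iES cells. The share of members with CCAAT was 12.0% in the shorter window from 100 bases before the start, where that of the genes past the level filter was 30.02%. The list itself kept 94 to 100 of its genes when a library was left out and 71 to 96 under the other alternatives, fewest with a control FPKM of at least 1.

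Of 64 named genes, 46 kept the sign of their morula change in all 11 alternatives. For 18 genes with changes near 0 the sign turned when a library was left out, over the ranges -0.033 to 0.24 for *Rnaseh2b*, -0.64 to 0.78 for *2210408I21Rik*, -0.20 to 0.067 for *Exosc4*, -0.45 to 0.25 for *Thumpd3*, -0.040 to 0.24 for *Sssca1*, -0.14 to 0.41 for *Tyms*, -0.26 to 0.22 for *Mtx2*, -0.51 to 0.013 for *Timm23*, -0.47 to 0.020 for *Gm14139*, -0.21 to 0.73 for *Rars2*, -0.47 to 0.046 for *Ssr2*, -0.032 to 0.24 for *Wdr83*, -0.076 to 0.14 for *Eif3i*, -0.31 to 0.0021 for *Eif4e2*, -0.25 to 0.099 for *Tmem208*, -0.50 to 0.11 for *Clns1a*, -0.055 to 0.69 for *Pmm2* and -0.30 to 0.11 for *Orc3*. *Eif3i* also turned to -0.038 with library totals only.

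Groups of 2 and 3 libraries do not allow a test for single outlying libraries, and the morula libraries had the lowest depth.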
